A study of Mus musculus with 21 samples.

Results

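Bulk RNA-seq of cultured mouse fibroblasts was examined for 10 genes that mark epithelial cells: the keratins Krt19, Krt8, Krt18, Krt7 and Krt14, the adhesion genes Cdh1 and Epcam, the surface glycoprotein gene Cd24a, the splicing regulator Esrp1 and the transcription factor Grhl2. They were taken by symbol (listed in capitals, as KRT19, KRT8, KRT18, KRT7, KRT14, CDH1, EPCAM, CD24A, ESRP1 and GRHL2) from 24447 genes listed for all cultures. Krt19 and Cd24a had been chosen by their changes between these groups, which were large or opposite in direction, so their levels and changes are given as a description with no test. The other 8 genes were tested in models fitted across all genes.

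The 21 cultures formed 7 groups of 3. Mouse embryonic fibroblasts (MEF) were WT, Prrx1 mutant (from embryos of the stock labelled 129S-Prrx1tm1Jfm/Mmmh, which the study lists as backcrossed to C57BL6) or sgPrrx1 (CRISPR/Cas9 with a guide RNA against Prrx1), from embryos of days 10 to 13. Fibroblasts of dorsal wounds at day 10 after wounding, and cancer-associated fibroblasts of MMTV-PyMT mammary tumours (MMTV-CAF), were each cultured as WT and as sgPrrx1 cells. The study describes its WT controls of sgPrrx1 MMTV-CAF and sgPrrx1 wound fibroblasts as carrying sgNS. Whether edited cells were 1 clone or a pool is not given in the sources used here, and neither is the zygosity of the mutant embryos. MMTV-CAF were labelled FVB/NJ and the other cells C57BL/6, so fibroblast type, strain and count table cannot be told apart when types are compared. Every culture, WT included, was immortalized with HPV E6/E (as the labels spell it) and grown in DMEM with 10% FBS. The labels do not say that the 3 cultures of a group came from separate animals or edited clones, so p-values measure the spread between these cultures, which may be technical.

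Keratins are the intermediate filament proteins of epithelia, and a filament needs a type I keratin (such as Krt14, Krt18 or Krt19) paired with a type II keratin (such as Krt5, Krt7 or Krt8). Simple epithelia pair Krt8 with Krt18 and often add Krt7 and Krt19, while the basal layer of skin pairs Krt5 with Krt14. Cdh1 (E-cadherin) and Epcam hold epithelial cells together, Grhl2 maintains their transcription and Esrp1 their pattern of splicing. Fibroblasts use vimentin filaments instead, and their Snail, Zeb and Twist factors are known repressors of Cdh1 and other epithelial genes in epithelial-mesenchymal transition (EMT).

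Krt8 and Krt18 are neighbours on chromosome 15, on opposite strands with 23873 bases between them (GRCm38.p6, the assembly of mm10), and Krt7 and Grhl2 lie on the same chromosome. Krt19 and Krt14 lie 57235 bases apart on chromosome 11. RefSeq promoter sequences were matched for 5 of the 10 genes. That of Krt14 lies inside the span of the gene used here, so its sequence is not shown. The 4 shown are Krt8, Krt18 and Krt7, whose transcripts changed with Prrx1 loss, and Epcam, which was counted in wound fibroblasts alone. Each line gives the 250 bases before the start of the gene, 5′ to 3′ on its strand, with the E-box CACCTG (or its complement CAGGTG), the sequence that Snail and Zeb factors bind, in capitals.
Krt8, chr15:102004343-102004592, minus strand: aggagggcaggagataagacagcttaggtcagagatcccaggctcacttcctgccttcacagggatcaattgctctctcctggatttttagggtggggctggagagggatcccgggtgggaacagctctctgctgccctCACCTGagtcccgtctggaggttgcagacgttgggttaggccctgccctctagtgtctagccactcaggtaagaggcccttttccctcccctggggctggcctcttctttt
Krt18, chr15:102027966-102028215, plus strand: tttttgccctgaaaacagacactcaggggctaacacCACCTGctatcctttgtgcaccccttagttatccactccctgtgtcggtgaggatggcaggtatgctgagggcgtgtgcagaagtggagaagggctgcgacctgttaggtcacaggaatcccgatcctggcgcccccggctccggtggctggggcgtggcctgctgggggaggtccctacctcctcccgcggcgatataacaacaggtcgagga
Krt7, chr15:101412153-101412402, plus strand: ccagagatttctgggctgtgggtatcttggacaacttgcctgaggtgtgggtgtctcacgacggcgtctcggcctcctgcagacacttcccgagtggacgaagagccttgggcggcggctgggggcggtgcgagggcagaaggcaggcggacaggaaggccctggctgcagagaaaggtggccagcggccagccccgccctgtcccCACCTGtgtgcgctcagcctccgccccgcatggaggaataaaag
Epcam, chr17:87635729-87635978, plus strand: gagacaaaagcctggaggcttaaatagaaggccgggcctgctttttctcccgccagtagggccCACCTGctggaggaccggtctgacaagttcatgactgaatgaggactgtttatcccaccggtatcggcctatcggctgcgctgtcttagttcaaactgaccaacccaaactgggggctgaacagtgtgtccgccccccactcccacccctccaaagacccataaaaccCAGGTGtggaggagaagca
In the window of 300 bases that reaches 50 bases past the start, the E-box occurred once before Krt8, Krt18 and Krt7 and 2 times before Epcam, against 20.2% of 32851 RefSeq promoters holding at least 1. It began 111 bases before the start of Krt8, 214 before Krt18 and 44 before Krt7, and 187 and 19 bases before that of Epcam. The homeodomain core TAATTA, searched on both strands and its own complement, was found in none of these 4 windows and in 5.29% of all promoters. The window listed for Krt14, which lies inside its gene, held 0 matches of the E-box and 0 of TAATTA. These are matches of letters, and binding was not measured.

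Levels are given as CPM, the count of a gene relative to the library total on the usual scale of RNA-seq, scaled over all 21 cultures by TMM, a correction for library composition. Total counts per culture lay between 69588655 and 134790440, so that a culture with 0 counts of a gene allows up to 3 counts, or between 0.0252 and 0.0425 CPM as a group mean. Prrx1 itself was lower and still counted in every group labelled as Prrx1 loss, 8.13-fold in mutant MEF, 1.5-fold in sgPrrx1 MEF, 2.27-fold in sgPrrx1 wound fibroblasts and 2.07-fold in sgPrrx1 MMTV-CAF, with no overlap between cultures. These ratios count transcripts and do not measure the protein. The fibroblast markers were present throughout: of 13 markers, between 10 and 12 reached 1 CPM in each group. In bulk RNA, fewer cells of a kind and less RNA per cell cannot be told apart, so no value here is a share of cells.

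Of the 10 genes, 4 reached a mean of 1 CPM in at least 1 group (Krt19, Cd24a, Krt18 and Krt14) and the other 6 stayed at or below 0.503 CPM in every group. No group had all 10 above 0, and the plot of levels shows which genes each group held. Tests were run on genes that passed a filter on low counts. A gene near 0 in the other group passed through the group where it was high and so had to differ. Its p-value is given as a description.

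**Figure D1:**
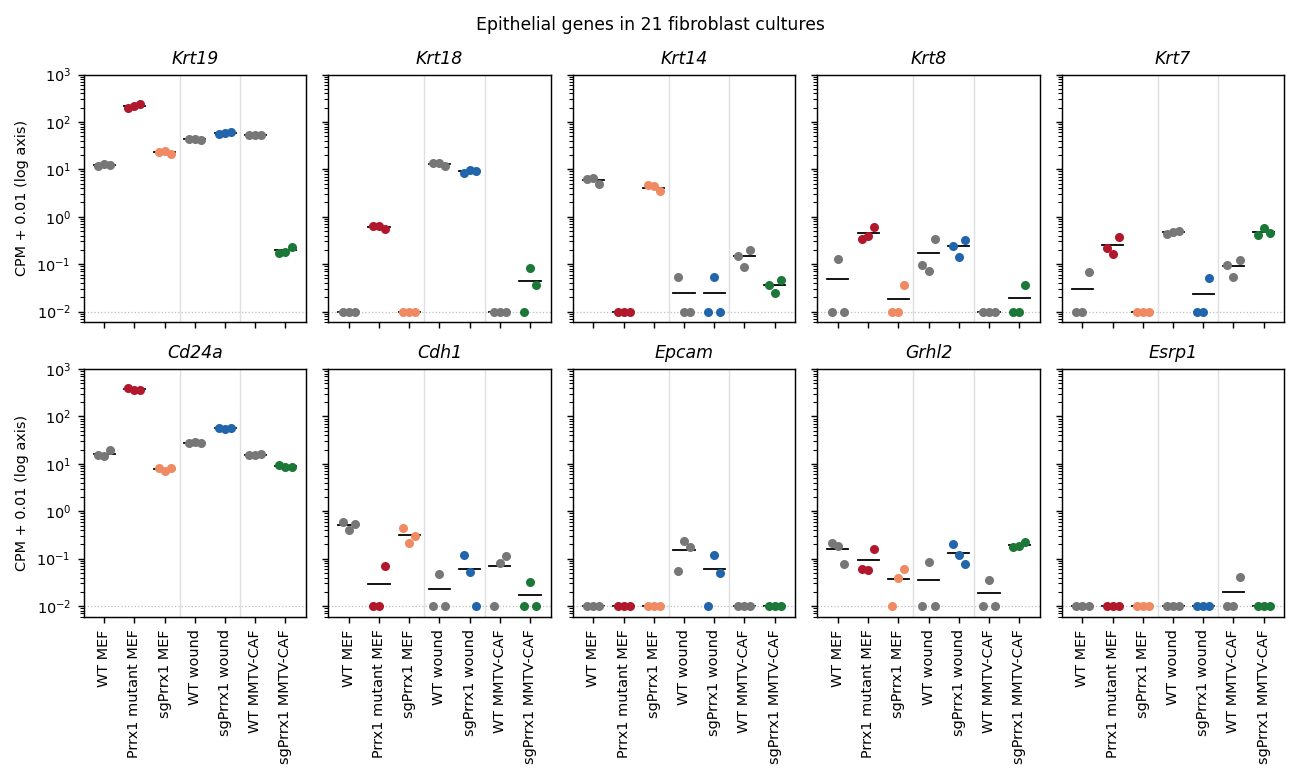
CPM of 10 epithelial genes in 21 cultures, with 0.01 added so that 0 can be drawn on the log axis (dotted line, a count of 0). Points are cultures and bars are means of 3. Krt19 and Cd24a were counted in every culture, Krt18 was at 0 in WT MEF, sgPrrx1 MEF and WT MMTV-CAF, and Krt14 was at 0 in every Prrx1 mutant MEF culture.

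Krt19, a type I keratin of simple epithelia, was counted in all 21 cultures. WT MEF had 11.8, 12.9 and 12.3 CPM and Prrx1 mutant MEF 197, 222 and 238 CPM, a mean of 219 ± 20.8 (SD, n = 3) that was 17.7-fold higher. In sgPrrx1 MEF the values were 23.3, 24.0 and 20.7 CPM, 1.84-fold above the same WT cultures. Wound fibroblasts had 44.2, 44.4 and 41.2 CPM in WT and 56.8, 58.1 and 60.8 CPM in sgPrrx1 cultures, a ratio of 1.35. In MMTV-CAF the difference ran the other way, from 54.1, 52.0 and 52.6 CPM in WT to 0.160, 0.170 and 0.223 CPM in sgPrrx1 cultures, 287-fold lower. Ordered by mean, the groups ran from mutant MEF through sgPrrx1 wound fibroblasts, WT MMTV-CAF, WT wound fibroblasts, sgPrrx1 MEF and WT MEF to sgPrrx1 MMTV-CAF, and no neighbours in this order overlapped. Krt19 was chosen for this pattern.

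Cd24a, which encodes a glycosylphosphatidylinositol-anchored sialoglycoprotein of epithelial and many other cells, was also counted in all cultures. Its CPM was 15.4, 14.9 and 19.2 in WT MEF and 399, 367 and 356 in Prrx1 mutant MEF, 22.7-fold higher. In sgPrrx1 MEF it was 8.13, 7.12 and 7.98 CPM, 2.13-fold lower than in the same WT cultures, so the mutant and sgPrrx1 MEF differed from WT in opposite directions. Wound fibroblasts had 27.7, 28.4 and 27.5 CPM in WT and 56.9, 54.6 and 55.9 CPM in sgPrrx1 cultures, a ratio of 2.0. MMTV-CAF had 15.3, 15.1 and 15.8 CPM in WT and 9.56, 8.44 and 8.73 CPM in sgPrrx1 cultures, a 1.73-fold lower mean. WT MEF and WT MMTV-CAF overlapped, and no other neighbours in the order of means did. Cd24a was also picked for its change, and it resembles processed copies elsewhere in the genome, so its counts depend on how shared reads were handled.

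Krt18, the type I partner of Krt8, was a transcript of wound fibroblasts. The WT wound cultures held 1224, 1073 and 1020 counts (13.4, 13.3 and 11.8 CPM) and the sgPrrx1 wound cultures 765, 912 and 694 counts (8.55, 9.79 and 9.24 CPM), with no overlap. It fell by 0.48 on the log2 scale (SE 0.07, edgeR adjusted p = 0.000216). All WT MEF, sgPrrx1 MEF and WT MMTV-CAF cultures were at 0 counts, and sgPrrx1 MMTV-CAF had 0, 10 and 3. Prrx1 mutant MEF had 48, 54 and 36 counts, at least 14.7-fold above WT MEF at a floor of 3 counts per library (edgeR adjusted p = 0.000428).

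Krt8, the type II partner of Krt18, did not follow it in level. WT wound fibroblasts held 8, 5 and 28 counts and sgPrrx1 wound fibroblasts 21, 12 and 24, and these groups overlapped (log2 fold change 0.49, SE 0.62, edgeR adjusted p = 0.485). One WT culture set this result: without WT wound replicate 3 the log2 fold change was 1.55 with an adjusted p of 0.0391. Per kb of exon, WT wound fibroblasts had 9.16 ± 0.629 CPM of Krt18 and 0.0875 ± 0.0801 CPM of Krt8 (SD, n = 3). In Prrx1 mutant MEF the pair was closer, with 0.425 ± 0.0418 CPM per kb of Krt18 and 0.240 ± 0.0762 of Krt8 (SD, n = 3). There Krt8 had 25, 33 and 40 counts against 0, 8 and 0 in WT MEF, a rise of 3.49 on the log2 scale (SE 0.96, edgeR adjusted p = 0.017), and with the replicate number as a block the adjusted p was 0.056. Krt8 was at 0, 0 and 2 counts in sgPrrx1 MEF, at 0 in WT MMTV-CAF and at 0, 0 and 3 in sgPrrx1 MMTV-CAF. Keratin genes have close relatives and processed copies, and the handling of reads shared with them is not given in the sources used here.

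Krt7, another type II keratin of simple epithelia, was low everywhere and moved in opposite directions with the same guide. WT wound fibroblasts held 39, 38 and 42 counts (0.427, 0.470 and 0.486 CPM) and sgPrrx1 wound fibroblasts 0, 0 and 3. The ratio of their totals was 39.5, with an exact 95% interval from 13.2 to 194 that covers counting error only (edgeR adjusted p = 0.000109). In MMTV-CAF, WT cultures held 9, 5 and 15 counts and sgPrrx1 cultures 45, 78 and 49, a rise of 2.51 on the log2 scale (SE 0.35, edgeR adjusted p = 0.000226). The difference between these effects, MMTV-CAF minus wound fibroblasts, was 7.69 on the log2 scale (SE 1.06, edgeR interaction test, adjusted p = 1.86e-05). In each of these types Krt7 passed the filter through the group where it was high and so had to differ. The p-values of both effects and of their difference are thus a description. Prrx1 mutant MEF had 16, 13 and 25 counts against 0, 0 and 5 in WT MEF (log2 fold change 3.35, SE 0.93, edgeR adjusted p = 0.0175), a call that was lost without mutant replicate 3 (adjusted p = 0.0515) or WT replicate 2 (0.0505). All sgPrrx1 MEF cultures were at 0.

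Krt14, the type I keratin of basal epidermis, reached 1 CPM in WT and sgPrrx1 MEF alone. WT MEF held 424, 452 and 434 counts (6.15, 6.51 and 4.99 CPM) and every Prrx1 mutant MEF culture 0, which is at least 149-fold lower (edgeR adjusted p = 2.69e-05). The sgPrrx1 MEF held 312, 294 and 265 counts (4.61, 4.34 and 3.42 CPM), below every WT culture, and the gene fell by 0.53 on the log2 scale (SE 0.16, edgeR adjusted p = 0.0356). That call was lost when any of 4 cultures was left out: sgPrrx1 replicate 2 (adjusted p = 0.0815), sgPrrx1 replicate 3 (0.0953), WT replicate 1 (0.0916) or WT replicate 2 (0.113). Wound fibroblasts held between 0 and 4 counts and MMTV-CAF between 2 and 25. Krt5, its usual type II partner, was at 0 in all MEF, in WT wound fibroblasts and in WT MMTV-CAF, with 4, 3 and 4 counts in sgPrrx1 wound fibroblasts and 2, 0 and 3 in sgPrrx1 MMTV-CAF.

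Cdh1, the cadherin of epithelial adherens junctions, was low and led by WT MEF, with 40, 27 and 47 counts (0.580, 0.389 and 0.540 CPM). Prrx1 mutant MEF held 0, 0 and 4 counts, and the gene fell by 4.74 on the log2 scale (SE 0.83, edgeR adjusted p = 0.0025). The sgPrrx1 MEF held 29, 14 and 23 counts, overlapping WT (log2 fold change −0.71, SE 0.36, edgeR adjusted p = 0.149). No culture of the other types had more than 14 counts. Cdh2, the N-cadherin of mesenchymal cells, stood between 96.0 ± 1.39 CPM in WT wound fibroblasts and 424 ± 11.7 CPM in sgPrrx1 MEF (SD, n = 3).

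Grhl2, a grainyhead-like factor that activates epithelial junction genes, was near the floor in WT MMTV-CAF at 0, 3 and 0 counts and reached 19, 24 and 24 in sgPrrx1 MMTV-CAF. The ratio of totals was 22.0 (exact 95% interval 7.20 to 109, counting error only, edgeR adjusted p = 0.00064). Grhl2 passed the filter there through the sgPrrx1 group alone and so had to differ, and this p-value is a description. In MEF it was 14, 12 and 6 counts in WT, 4, 4 and 10 in Prrx1 mutant and 0, 2 and 4 in sgPrrx1 cultures; the mutant and WT groups overlapped (log2 fold change −0.88, SE 0.65, edgeR adjusted p = 0.275). Wound fibroblasts held 0, 6 and 0 counts in WT and 17, 10 and 5 in sgPrrx1 cultures, and Grhl2 did not pass the filter on low counts there or in sgPrrx1 MEF. Epcam, an epithelial adhesion molecule, was counted only in wound fibroblasts, at 4, 18 and 14 in WT and 0, 10 and 3 in sgPrrx1 cultures, groups that overlapped. It was at 0 in all other cultures. Esrp1 was at 0 in 20 cultures and at 4 counts in the remaining WT MMTV-CAF culture. Neither Epcam nor Esrp1 passed the filter in any comparison.

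Counted over the 8 genes tested, 6 passed the filter in Prrx1 mutant MEF and 5 were called, where 59.9% of all genes tested were called, 29.4% higher and 30.5% lower: Krt8, Krt18 and Krt7 rose and Krt14 and Cdh1 fell. In sgPrrx1 MEF, 2 passed and only Krt14 was called, lower (background 43.1%, with 20.3% higher and 22.8% lower). These comparisons share the 3 WT cultures. In wound fibroblasts, 3 passed and 2 fell, Krt18 and Krt7 (background 77.6%, with 38.3% higher and 39.3% lower), and in MMTV-CAF 2 passed and both rose, Krt7 and Grhl2 (background 83.1%, with 41.2% higher and 41.9% lower). A gene that passes the filter through one group alone has to differ, so these shares and the p-values of such genes are a description. Such genes were Krt8, Krt18, Krt7, Krt14 and Cdh1 in mutant MEF, Krt7 in wound fibroblasts, and Krt7 and Grhl2 in MMTV-CAF.

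**Figure D2:**
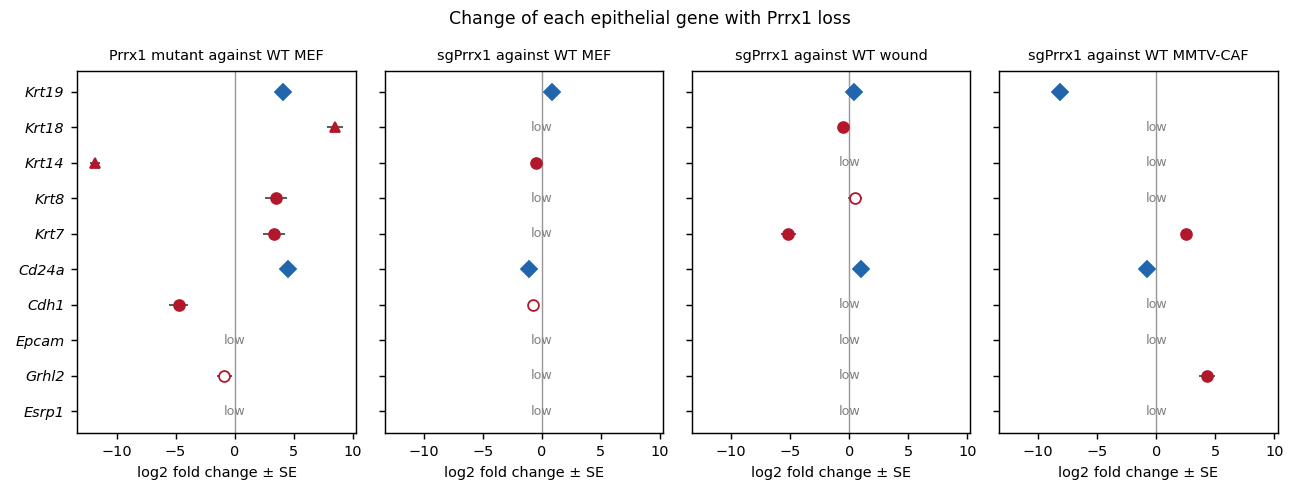
Log2 fold change ± SE of each gene in 4 comparisons of Prrx1 loss with WT (n = 3 in each group). Red filled symbols passed the edgeR threshold, open symbols did not, blue diamonds are Krt19 and Cd24a, which were not tested, triangles mark a gene at 0 in one group, whose fitted size depends on the prior count and is no bound, and "low" marks genes under the filter. Krt7 fell in wound fibroblasts and rose in MMTV-CAF.

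The 2 kinds of Prrx1 loss in MEF were compared directly. Of the 8 genes, 5 passed the filter and all 5 were called, where 56.2% of all genes tested were called, 27.8% higher and 28.4% lower. Each of the 5 passed through the one group where it was high and so had to differ, and the count is a description. Compared with mutant MEF, sgPrrx1 MEF had lower Krt8, Krt18 and Krt7 and higher Krt14 and Cdh1. Krt14 was at least 105-fold higher, Krt18 at least 14-fold lower and Krt7 at least 5.71-fold lower at the floor of 3 counts per library, with edgeR adjusted p-values of 6.7e-05, 0.000506 and 0.00593. With a replicate block the adjusted p of Krt7 was 0.0504. Cdh1 had 29, 14 and 23 counts in sgPrrx1 and 0, 0 and 4 in mutant MEF (edgeR adjusted p = 0.00864), and Krt8 differed by a ratio of totals of 45.3 (exact 95% interval 12.2 to 379; edgeR adjusted p = 0.00113). Krt19 was 9.64-fold and Cd24a 48.3-fold lower in sgPrrx1 MEF, given without a test.

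Whether the effect of the guide differed between types was tested as an interaction over 18 cultures, in which 6 of the 8 genes passed the filter. Any difference among the 3 types was called for 3 genes, Krt7, Grhl2 and Krt18 (background 80.1%). Wound fibroblasts and MEF differed for 1 gene, Grhl2 (background 60.3%, of which 28.8% were higher and 31.5% lower). MMTV-CAF and MEF differed for 3 genes, Krt7 and Grhl2 higher and Krt14 lower (background 60.7%, with 30.2% higher and 30.5% lower), and MMTV-CAF and wound fibroblasts for 3, Krt7 and Krt18 higher and Cdh1 lower (background 66.5%, with 34.8% higher and 31.7% lower). Several of these rest on few counts. Krt7 entered through WT wound fibroblasts and sgPrrx1 MMTV-CAF, where it was high, so its calls here are a description. Krt18 did not pass the filter within MMTV-CAF (0 counts in WT, and 0, 10 and 3 in sgPrrx1 cultures) and entered through wound fibroblasts. Grhl2 did not pass the filter within wound fibroblasts or within sgPrrx1 and WT MEF, and entered this fit of 18 cultures through the other groups, with at most 17 counts in a wound or MEF culture. The difference in Krt7 between MMTV-CAF and MEF (edgeR adjusted p = 0.0153) had an adjusted p of 1 without WT MEF replicate 3, whose 5 counts were the only ones in MEF of these groups. The differences in Krt14 and Cdh1 were each lost in at least 6 of the settings that leave out 1 culture.

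Among WT cultures, Krt18 was at least 317-fold higher in wound fibroblasts than in MEF (edgeR adjusted p = 7.1e-07) and at least 501-fold higher than in MMTV-CAF (5.57e-07). Krt14 was 43.4-fold lower in MMTV-CAF than in MEF (edgeR adjusted p = 1.09e-06), and it was also lower in wound fibroblasts, where WT cultures held 4, 0 and 0 counts (4.24e-07). Of the 8 genes, 4 passed the filter in each of these comparisons. Each passed through the type where it was high, Krt18 and Krt7 in wound fibroblasts and Krt14 and Cdh1 in MEF. Comparisons with that type were thus set to differ, so these p-values and counts are a description. Those called were 4 between wound fibroblasts and MEF (background 80.3%, with 40.9% higher and 39.4% lower), 2 between MMTV-CAF and MEF (background 79.2%, with 40.6% higher and 38.6% lower) and 3 between MMTV-CAF and wound fibroblasts (background 80.4%, with 39.4% higher and 41.1% lower). Krt14 and Cdh1 were higher in WT MEF than in both other types, and Krt18 and Krt7 were higher in WT wound fibroblasts than in both other types.

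Among 13 other keratins, 3 reached 1 CPM in at least 1 group, Krt10, Krt13 and Krt80. Krt80, a type II keratin, was counted in every culture. It rose in all 4 comparisons, by 1.48 in Prrx1 mutant MEF, 0.75 in sgPrrx1 MEF, 0.23 in wound fibroblasts and 1.87 in MMTV-CAF (log2, edgeR adjusted p from 1.63e-08 to 0.0146). Krt13, a type I keratin of mucosal epithelia, rose by 5.89 in mutant MEF, from 6, 0 and 6 counts to 225, 290 and 240. It fell by 6.22 in sgPrrx1 MMTV-CAF, from 80, 120 and 117 counts to 0, 2 and 2 (edgeR adjusted p = 3.32e-06). Krt10, a type I keratin of suprabasal epidermis, rose by 1.03 in sgPrrx1 MEF and by 0.82 in sgPrrx1 MMTV-CAF.

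Summed over 10 type I and 8 type II keratins per kb of exon, type I transcripts exceeded type II in every culture of 6 groups. WT MMTV-CAF had 30.3 ± 0.427 CPM per kb of type I, of which Krt19 made up 94.1%, and 0.719 ± 0.0303 of type II (SD, n = 3). In Prrx1 mutant MEF the sums were 121 ± 11.2 and 5.83 ± 0.453 (SD, n = 3). In sgPrrx1 MMTV-CAF the order turned, with 2.33 ± 0.0910 of type I, mainly Krt10, and 2.71 ± 0.0514 of type II (SD, n = 3), and no overlap between the 2 sums. Krt80 made up between 92.8 and 99.9% of the type II sum in all groups. Krt19, which was picked, dominates the type I sum of the other 6 groups, so these sums carry no test.

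**Figure D3:**
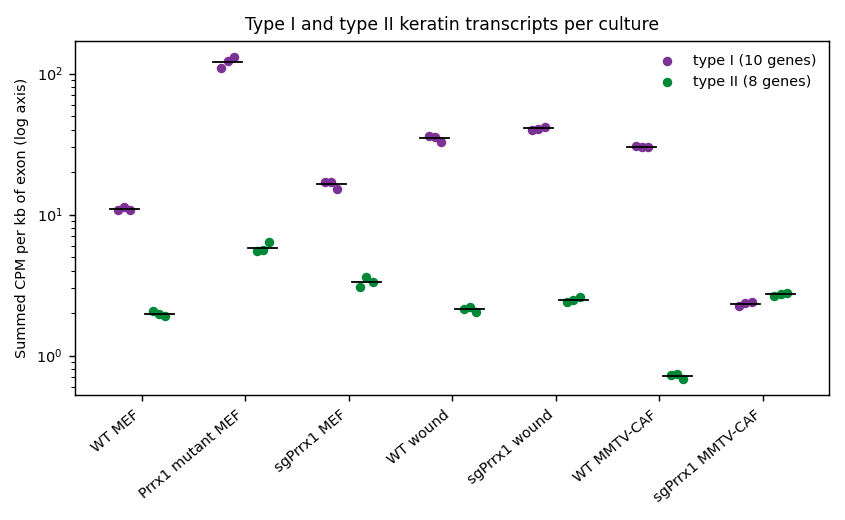
Summed CPM per kb of exon (log axis) of 10 type I and 8 type II keratins in each culture, with bars at the mean of 3. The sgPrrx1 MMTV-CAF are the one group in which the type II sum lies above the type I sum.

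Genes of epithelial junctions and polarity, 37 in the list, split in direction in each comparison. Prrx1 mutant MEF had 10 higher, 9 lower and 2 not called of 21 tested (median log2 fold change −0.36, against 0.01 for all genes), where 29.4% of all genes were higher and 30.5% lower. Spint2, an inhibitor of epithelial serine proteases, rose there from 6, 0 and 0 counts to 166, 188 and 165 (edgeR adjusted p = 0.000391). Of the integrin subunits of hemidesmosomes, Itga6 fell by 2.35 and Itgb4 fell by 2.83. In sgPrrx1 MEF, 4 of 19 were higher and 10 lower (median −0.92; all genes, 20.3% higher and 22.8% lower), and Itga6 rose by 1.82 there.

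In wound fibroblasts, 12 of 22 junction genes rose and 6 fell (median 0.25), and the total called was near the 77.6% of all genes called. Lsr, the angulin of tricellular junctions, rose by 3.6 (SE 0.13) and the desmosomal linker Ppl by 3.11 (SE 0.18), with edgeR adjusted p-values of 3.54e-08 and 6.04e-07, and the tight junction gene Cldn3 fell by 4.65. In MMTV-CAF, 7 of 15 rose and 6 fell (median −0.17), near the 83.1% of all genes called. Cldn1, a tight junction claudin, rose from 139, 189 and 209 counts to 5867, 7198 and 5797 (5.09, SE 0.07, edgeR adjusted p = 4.78e-10). Ppl fell there from 1035, 991 and 1208 counts to 0, 0 and 5, and Cdh3 (P-cadherin) from 1277, 1389 and 1600 to 0, 11 and 2. Ppl thus moved in opposite directions in the 2 kinds of edited fibroblasts.

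**Figure D4:**
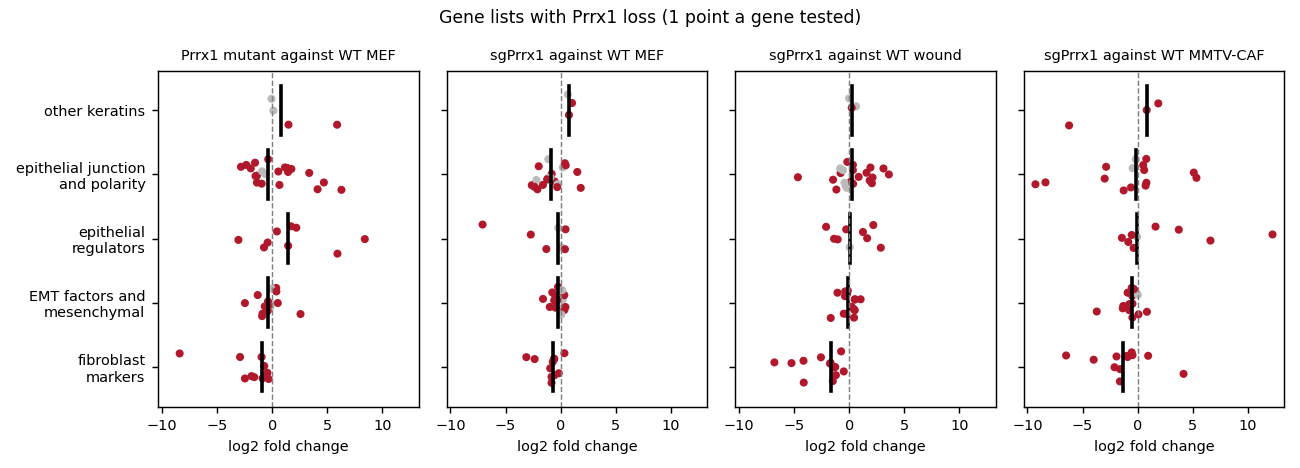
Log2 fold change of each tested gene of 5 lists in the 4 comparisons (red, called; grey, not called; black bar, list median; dashed line, median of all genes). Genes at 0 in one group are drawn at their fitted value. Junction genes lie on both sides of 0 in every comparison, and the median of the fibroblast markers is below 0 in all 4.

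Among 18 epithelial regulators, 6 of 9 tested rose and 3 fell in mutant MEF (median 1.45), where 59.9% of all genes were called. Foxa1, a pioneer factor of endodermal and mammary epithelia, went from 0, 6 and 0 counts in WT MEF to 772, 819 and 652 (8.40, SE 0.60, edgeR adjusted p = 4.26e-05). Tfap2a, a factor of surface ectoderm, went from 0, 0 and 2 to 54, 63 and 32, and Klf4 fell by 3.06. In sgPrrx1 MEF, 2 of 7 rose and 3 fell (median −0.22; 43.1% of all genes called), Trp63 among them, with 10, 20 and 22 counts in WT and 0 in all sgPrrx1 cultures. In wound fibroblasts 4 of 9 rose and 4 fell (median 0.05; 77.6% of all genes called).

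In MMTV-CAF 4 of 9 regulators rose and 4 fell (median −0.06), near the 83.1% of all genes called. Ehf, an ETS factor of epithelia, was at 0 in the 18 cultures of the other 6 groups and at 564, 687 and 580 counts in sgPrrx1 MMTV-CAF, at least 199-fold above WT MMTV-CAF (edgeR adjusted p = 1.31e-07). Trp63, the p63 factor of stratified epithelia, rose there from 276, 260 and 318 counts to 3501, 4492 and 3681 (3.73, SE 0.05, edgeR adjusted p = 4.45e-10), and Tfap2a from 6, 4 and 6 to 553, 591 and 487. Krt14 and Krt5, which p63 activates in epidermis, held 3, 2 and 4 and 2, 0 and 3 counts in these same cultures. Esrp2, the relative of Esrp1, was counted in every culture, rose by 1.71 in mutant MEF and 1.25 in wound fibroblasts, and fell by 1.30 in sgPrrx1 MEF and 0.54 in MMTV-CAF. Ovol1 and Ovol2, which oppose EMT in epithelia, were at 0 in all 21 cultures.

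**Figure D5:**
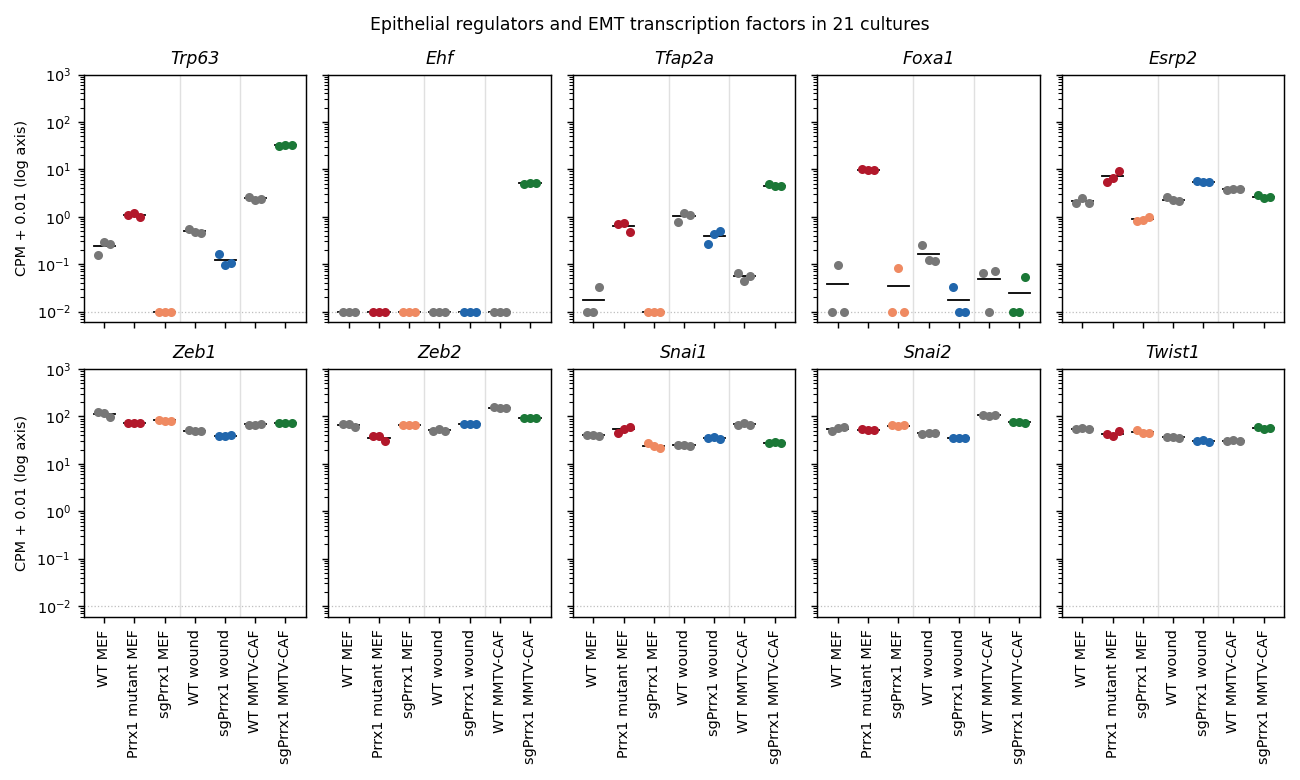
CPM + 0.01 (log axis) of 5 epithelial regulators (top row) and 5 EMT transcription factors (bottom row) in each culture, with bars at the mean of 3 (dotted line, a count of 0). Ehf is above 0 in sgPrrx1 MMTV-CAF alone, and the EMT factors stay between 21.4 and 159 CPM in every culture.

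EMT transcription factors were abundant in all groups. Zeb1 was between 39.4 ± 0.754 CPM in sgPrrx1 wound fibroblasts and 114 ± 15.5 CPM in WT MEF, and Snai1 between 24.2 ± 3.02 CPM in sgPrrx1 MEF and 67.8 ± 3.72 CPM in WT MMTV-CAF (SD, n = 3). In mutant MEF Zeb1 fell by 0.67, Zeb2 by 0.91 and Twist1 by 0.38, while Snai1 rose by 0.37 and Snai2 did not pass the test (−0.10, edgeR adjusted p = 0.335). In sgPrrx1 MMTV-CAF Snai1 fell by 1.31, Zeb2 by 0.77 and Snai2 by 0.49, while Twist1 rose by 0.84 and Zeb1 by 0.08. In wound fibroblasts Zeb1, Snai2 and Twist1 fell by 0.36, 0.38 and 0.26, and Zeb2 and Snai1 rose by 0.44 and 0.51. Zeb1 fell by 0.48, Snai1 by 0.76 and Twist1 by 0.24 in sgPrrx1 MEF. There Zeb2 (0, edgeR adjusted p = 0.976) and Snai2 (0.20, edgeR adjusted p = 0.0655) did not pass the test. Of the 15 EMT and mesenchymal genes, 8 fell in each of the first 3 comparisons (MEF and wound) and 12 in MMTV-CAF, with 4, 3, 7 and 2 rising. Over all genes 30.5, 22.8, 39.3 and 41.9% were lower in these comparisons.

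Markers of cells that express these genes were measured beside them. Without the genes described here, the summed level of mammary luminal markers was 3.90 to 6.22 CPM in WT MEF and 12.4 to 13.9 CPM in Prrx1 mutant MEF, and 8 of the 10 markers were at 0 in all mutant cultures. It was 1.12 to 1.79 CPM in sgPrrx1 MEF. Wound fibroblasts had 48.4 to 51.5 CPM of these luminal markers in WT and 61.25 to 65.2 CPM in sgPrrx1 cultures, with 1 marker at 1 CPM or more. MMTV-CAF had 10.2 to 11.3 CPM in WT and 15.3 to 16.2 CPM in sgPrrx1 cultures. Keratinocyte markers without Krt14 summed to 10.1 to 12.8 CPM in WT, 42.6 to 46.0 in mutant and 43.9 to 52.7 in sgPrrx1 MEF. These markers split in direction. In mutant MEF Perp, a desmosomal p53 target also found outside epidermis, rose by 2.91 and Trp63 by 2.19 on the log2 scale. Sfn fell there by 4.07 and Col17a1 by 1.35. In sgPrrx1 MEF Perp rose by 3 and Krt10 by 1.03 on the log2 scale, while Trp63 was at least 5.39-fold lower. The summed level of mesothelial markers was 17.9 to 18.3 CPM in WT and 35.2 to 38 CPM in mutant MEF, most of the latter Msln. In mutant MEF Wt1 went from 475, 485 and 591 counts to 0 and Upk3b from 100, 109 and 142 to 0, 2 and 6. The same sum was 39.3 to 40.5 CPM in sgPrrx1 MEF, so its rise was not particular to the mutant. Msln rose by 1.83 and Wt1 by 1.1 on the log2 scale in sgPrrx1 MEF, while Upk3b and Pkhd1l1 fell. In wound fibroblasts, mesothelial markers summed to between 79.6 and 82.5 CPM in WT and between 133 and 137 CPM in sgPrrx1 cultures. Of the 7 mesothelial markers listed, 1 reached 1 CPM in WT and 3 in sgPrrx1 wound fibroblasts. Compared with WT MEF, WT wound fibroblasts had Msln 3.54 higher on the log2 scale and Wt1 3.4, Upk3b 0.68 and Pkhd1l1 6.28 lower. Endothelial markers summed to 287 to 293 CPM in WT and 140.1 to 144.9 CPM in sgPrrx1 wound fibroblasts, with 1 marker at 1 CPM or more. Keratinocyte markers without Krt14 lay between 32.4 and 36.4 CPM in WT and between 104.6 and 105.4 CPM in sgPrrx1 wound fibroblasts. Perp made up 98.4 ± 0.105 CPM (SD, n = 3) in the latter. In MMTV-CAF, mesothelial markers lay between 2.54 and 2.85 CPM in WT and between 11.7 and 13.3 CPM in sgPrrx1 cultures, a sum carried by Wt1, which rose by 3.3 on the log2 scale, while Msln fell by 4.85, Upk3b fell by 7.06 and Pkhd1l1 fell by 2.63. There keratinocyte markers lay between 5.82 and 6.40 CPM in WT and between 35.6 and 37.9 CPM in sgPrrx1 cultures, most of the latter Trp63. Fibroblast markers fell in 11 of 11 tested in mutant MEF, 10 of 11 in sgPrrx1 MEF, 13 of 13 in wound fibroblasts and 10 of 12 in MMTV-CAF, where over all genes 30.5, 22.8, 39.3 and 41.9% were lower. In MMTV-CAF Dcn rose by 4.16 and Pdgfra by 0.95. The next counts are in the order mutant MEF, sgPrrx1 MEF, wound fibroblasts and MMTV-CAF. Over all genes, 29.4, 20.3, 38.3 and 41.2% were higher and 30.5, 22.8, 39.3 and 41.9% lower. The mammary luminal list (15 genes, members included, 5, 3, 5 and 2 tested) had 4, 0, 1 and 1 higher and 1, 2, 2 and 0 lower. Krt8, Krt18 and Cdh1 were among these calls. The mesothelial list (12 genes, members included, 7, 4, 7 and 5 tested) had 4, 2, 4 and 2 higher and 3, 2, 2 and 3 lower. The keratinocyte list (13 genes, members included, 6, 6, 6 and 5 tested) had 2, 2, 1 and 2 higher and 3, 2, 1 and 3 lower. The immune list (10 genes, 3, 3, 4 and 4 tested) had 1, 2, 2 and 1 higher and 0, 0, 0 and 3 lower. The endothelial list (8 genes, 3, 4, 1 and 4 tested) had none higher and 3, 2, 1 and 2 lower. The muscle and glial list (8 genes, 2, 3, 2 and 3 tested) had 0, 1, 0 and 0 higher and 1, 1, 1 and 2 lower. The part of other cells in the epithelial genes was not tested.

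Genes with levels most like those of Krt19, Krt8 and Cd24a over the 21 cultures were sought by Pearson's correlation of log2 CPM among 15093 genes, as a description, since the cultures fall into groups and share libraries. Krt19 was most like Glrb (r = 0.983), 2900026A02Rik (0.981) and Cdk2ap1 (0.967). Glrb had 4.91 ± 0.152 CPM in mutant MEF and 0.00985 ± 0.0171 CPM in sgPrrx1 MMTV-CAF (SD, n = 3), which were also the highest and lowest groups of Krt19. Cd24a was most like Cmas (0.95), Hoxa11 (0.947) and Lce3c (0.945), and Krt8 was most like Cmtm8 (0.914), Wdr17 (0.912) and Robo1 (0.898).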

How the data were processed

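RNA of 21 cultures was sequenced from libraries that do not mark strand. The deposited values are raw counts per gene, in 3 tables, one per fibroblast type. To make them the authors used Trimmomatic, then STAR on the mm10 build, and HTSeq for counting, as the processing notes list. Wound columns were matched to labels by elimination. No column was left unmapped (0). Among values from 1 to 20, between 52.2 and 58.3% were even. The study's methods end their account of mouse and human libraries with ComBat-seq, a batch correction, and whether the deposited counts were corrected is not given in the sources used here.

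Counts were tested with edgeR 4.0.16 in R 4.3.3 (filterByExpr, TMM, quasi-likelihood test, Benjamini-Hochberg adjustment over all genes tested, threshold 0.05), and tests were checked on simulated data. DESeq2 1.42.0 was an alternative. Comparison tests used 6 cultures each, interactions 18 and WT types 9. Total counts were 69588655 to 134790440 per culture, and intervals and floors cover counting error only. CPM per kb used Gencode M1 exon lengths. Promoters were RefSeq GRCm38.p6. The genes named were the 10 members, Prrx1, a set of always-named EMT and keratin genes, and in each list the 2 called genes with the largest rise and fall per comparison. Other list genes were added after their values were seen. The members and lists were chosen with earlier results of these data known.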

Additional observations from a re-analysis of the deposited data

Results flagged for a closer look

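For 5 genes the effect of sgPrrx1 differed between fibroblast types by the edgeR interaction test, in 7 comparisons of types. Of the 6 genes that passed the filter, 1 was called between wound fibroblasts and MEF, where 60.3% of all genes were called. Between MMTV-CAF and MEF 3 were called (all genes, 60.7%), and 3 between MMTV-CAF and wound fibroblasts (all genes, 66.5%). These shares do not set the genes apart from all genes. Krt7 differed between MMTV-CAF and wound fibroblasts by 7.69 on the log2 scale (adjusted p = 1.86e-05), where every sgPrrx1 wound culture was below WT and every sgPrrx1 MMTV-CAF culture above. Krt7 entered this fit through the groups where it was high and so was set to differ, and its p-values here are a description. Krt7 differed between MMTV-CAF and MEF by 6.63 (adjusted p = 0.0153), and without WT MEF replicate 3 the adjusted p was 1. Grhl2 differed between MMTV-CAF and MEF by 6.60 (adjusted p = 0.000998), from at most 24 counts in a culture. Grhl2 differed between wound fibroblasts and MEF by 4.63 (adjusted p = 0.0106), from at most 17 counts in a culture and with the gene under the count filter within each of these types. Krt18 differed between MMTV-CAF and wound fibroblasts by 5.29 (adjusted p = 0.00882), a size that depends on the prior count because WT MMTV-CAF were at 0. The sgPrrx1 MMTV-CAF held 0, 10 and 3 counts. Krt18 was under the count filter within MMTV-CAF and entered this fit through wound fibroblasts. Krt14 differed between MMTV-CAF and MEF by −1.87 (adjusted p = 0.0324), with an adjusted p from 0.0507 to 0.105 in the 6 settings that lost the call by leaving out 1 culture. Cdh1 differed between MMTV-CAF and wound fibroblasts by −4.72 (adjusted p = 0.0358), with an adjusted p of up to 0.16 without 1 culture.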

How the results depend on the processing

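Asking for at least a 2-fold change left 3283, 1411, 2179 and 3377 genes called in Prrx1 mutant MEF, sgPrrx1 MEF, wound fibroblasts and MMTV-CAF. Of the 8 genes, 2 passed the filter in sgPrrx1 MEF, of which 0 stayed called, and 3 in wound fibroblasts, of which 1 did. A minimum of 10 counts in every culture left 1 of the 8 genes called in wound fibroblasts. With no filter 5 of the 8 were called between WT MMTV-CAF and WT wound fibroblasts. Leaving out 1 culture gave 0 to 2 of the 8 genes and 3830 to 6340 genes in all in sgPrrx1 MEF. Between WT MMTV-CAF and WT MEF it gave 2 to 4 of the 8 genes and 10884 to 11822 genes in all. Between WT MMTV-CAF and WT wound fibroblasts it gave 3 to 5 of the 8 and 11080 to 11136 in all. In the main setting 4 of the 8 passed the filter in each of these WT comparisons. The log2 fold change of Cd24a between WT MMTV-CAF and WT MEF, −0.15, lay between −0.21 and 0.01 with 1 culture left out, turning in sign without WT MEF replicate 3. The cause of these changes was not tested. Replicate numbers did not pair the cultures (correlations from −0.223 to 0.13). With a replicate block, 4, 1, 2 and 2 of the 8 genes and 6457, 6629, 10518 and 11320 genes in all were called in the 4 comparisons, and the Cdh1 difference between MMTV-CAF and wound fibroblasts had an adjusted p of 0.0509. Scaling by library totals alone moved the share of called genes that were higher from 49.3 to 60.3% in wound fibroblasts and from 49.6 to 58.5% in MMTV-CAF, with medians of all genes at 0.12 and 0.13. For single genes, a value was counted as unchanged if its call stayed the same. A turn in sign was counted only for genes called in the main setting and for Krt19 and Cd24a. Those 2 carry no call and were unchanged if their sign held and their size moved little. By this rule 472 values under other settings were unchanged, and 5 lost and 1 gained a call. With 1 culture left out, 539 were unchanged, 20 lost and 4 gained a call and 1 turned in sign. Settings that left none of the genes gave no value. Counts near 0 limit Krt8, Krt7, Cdh1, Grhl2, Epcam and Esrp1.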
